A study of Bos taurus with 21 samples.

Results

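Transcripts of 9 signal transducers and interferon regulatory factors were followed in the muscle of cattle foetuses: the STAT genes *STAT2*, *STAT3*, *STAT5A*, *STAT5B* and *STAT6*, and the IRF genes *IRF1*, *IRF3*, *IRF7* and *IRF9*. The members are all probes on the array whose RefSeq transcript belongs to 1 of these 9 genes in the cattle annotation, which gave 21 of the 43653 probes on the array (26628 of them could be named, for 12538 genes). Of these 21 probes, 11 passed the filter on dim probes and were tested. They cover 8 of the 9 genes, since the single *STAT6* probe did not pass. The rule used no measured value.

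STAT proteins wait in the cytoplasm until a cytokine or hormone receptor and its JAK kinase phosphorylate them. They then pair and enter the nucleus to switch on target genes. *STAT2* joins *IRF9* in the complex that carries the type I interferon signal, and genes such as *ISG15* and *MX1* are among its targets, while *IRF3* and *IRF7* act upstream and switch on the interferon genes themselves. In muscle, *STAT3* carries signals of the interleukin 6 family, and *STAT5A* and *STAT5B* those of growth hormone and prolactin.

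The RNA of 21 foetuses was hybridised to single-colour bovine oligonucleotide arrays, 1 array per foetus. There were 10 Blonde Aquitaine (BA) and 11 Charolais (CH) foetuses, and none had been treated. BA foetuses numbered 3 at 110 days postconception (dpc), 2 at 180, 3 at 210 and 2 at 260, and CH foetuses 2, 3, 3 and 3 at the same stages. A mutation of *MSTN*, which encodes the growth inhibitor myostatin, occurs in the BA breed, but these foetuses were not genotyped for it. Males and females were unevenly spread over the 8 groups, with no male among the BA foetuses at 180 and 260 dpc and none among the CH foetuses at 110 dpc. The sample labels name *m.* *Longissimus thoracis* and the study's text *m.* *Semitendinosus*.

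Levels are given as normalized log2 intensity, on which 1 unit is a doubling and 0 is the level of the median probe. They show how 1 probe varies across foetuses and do not rank one gene above another. The number of probes detected well above background ranged over the arrays from 29027 to 34508, and was highest on the third BA array at 110 dpc and on the first CH array at 210 dpc. The 9 tested skeletal muscle markers (of 11 listed) had group means between 7.73 and 8.66. The BA array at 110 dpc with the most detected probes, replicate 3, stood apart: its *ISG15* level was 8.09 against at most 3.94 on the other 20 arrays, so the results of members, gene lists and member pairs that it changes are also given without it, the lists and pairs as a choice made after seeing the data. The arrays lay on 6 slides of at most 4 arrays, and 1 slide held only CH.

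**Figure D1:**
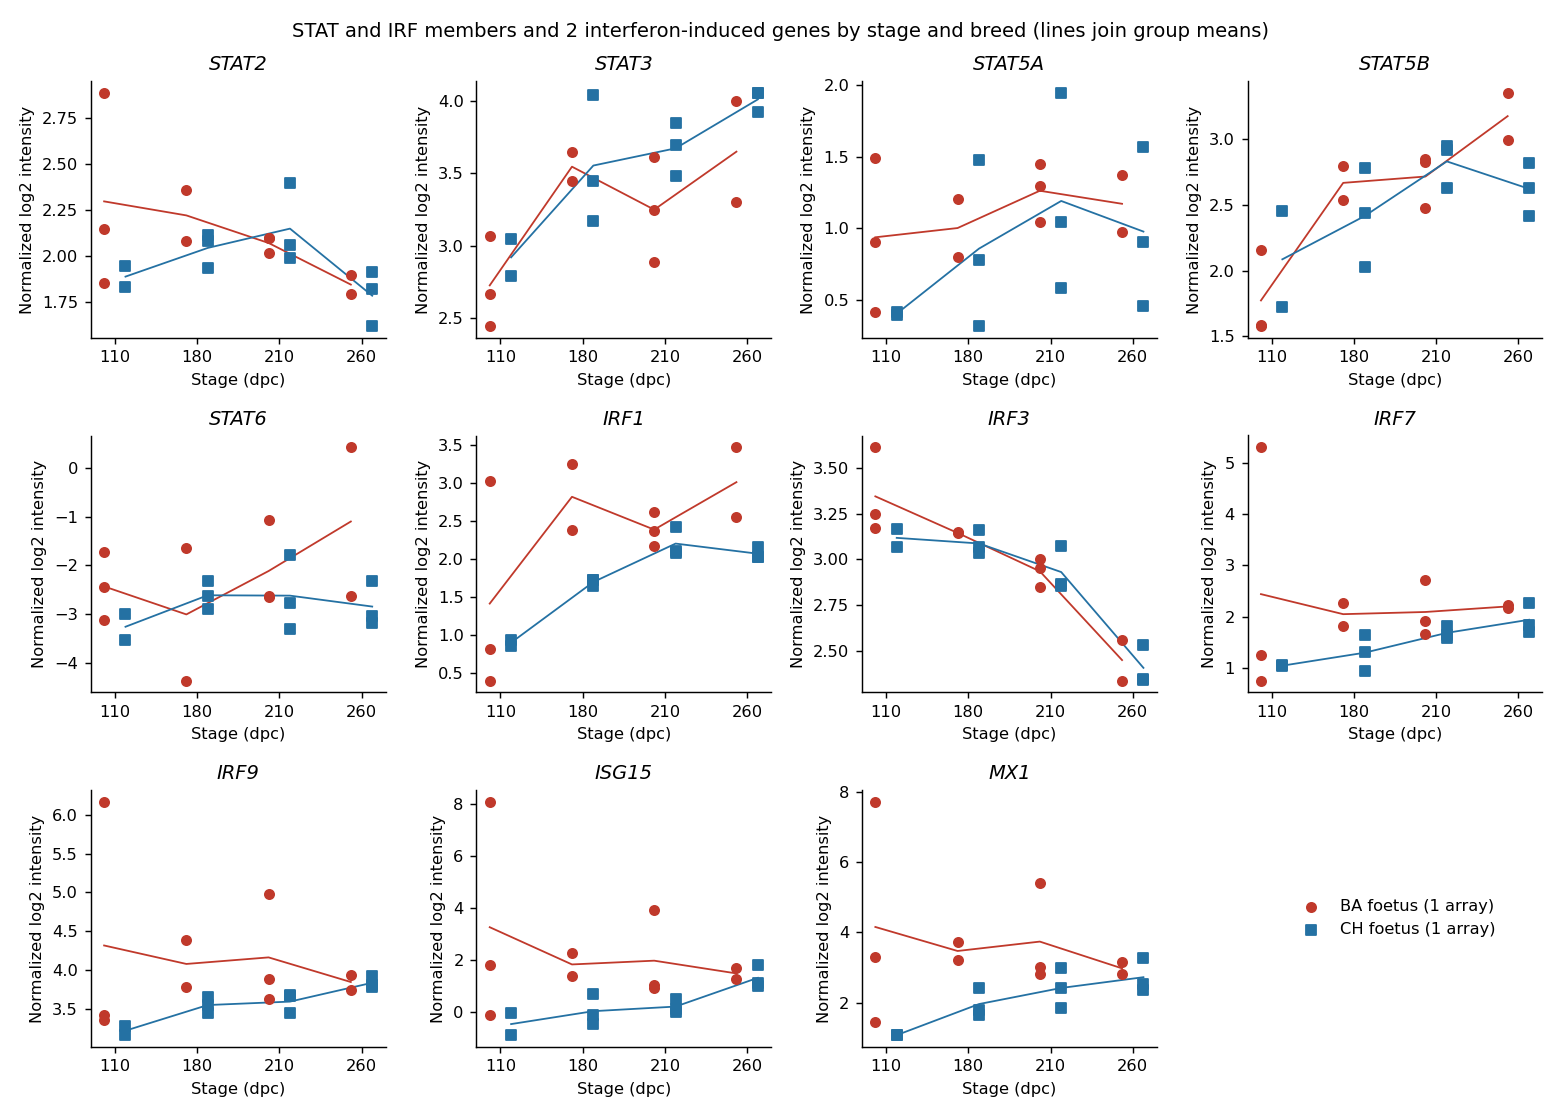
Normalized log2 intensity (vertical axes, 1 scale per gene) of the main probe of the 9 members and of *ISG15* and *MX1* against stage in dpc (spaced evenly), with 1 point per foetus, circles for BA and squares for CH, and lines through the group means. *STAT3*, *STAT5B* and *IRF1* were higher at 260 than at 110 dpc and *IRF3* was lower, while the highest points of *IRF7*, *IRF9*, *ISG15* and *MX1* belong to the same BA array at 110 dpc.

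The first question was how the members change as muscle matures before birth. *STAT3*, *STAT5B* and *IRF1* rose between 110 and 260 dpc and *IRF3* fell. No test was passed by *STAT2*, *STAT5A*, *IRF7* or *IRF9* with all arrays in the fit. In numbers, 6 of the 11 probes (4 of the 8 genes) differed in the mean of the breeds, against 64.1% of all 20132 probes tested, so the members changed no more often than probes at large. Of these 6, 4 were higher (33.3% of all probes) and 2 lower (30.8%) at 260 dpc. The F test over all 4 stages passed for 6 probes (66.7% of all), the contrast within BA for 6 (52.4%) and that within CH for 4 (52.2%). Relative to 110 dpc, 4 member probes had changed by 180 dpc (24% of all) and 5 by 210 dpc (44.4%), and 3 changed between 210 and 260 dpc (44.7%). In bulk muscle, fewer cells of a type and less RNA per cell cannot be told apart, and this holds for every level below.

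*STAT3*, the transducer of interleukin 6 type cytokines, was 3.07, 2.45 and 2.67 in the BA foetuses and 2.79 and 3.05 in the CH foetuses at 110 dpc. At 260 dpc it was 4.00 and 3.30 in BA and 3.92, 4.05 and 4.06 in CH. All 5 late foetuses lay above all 5 early ones. The difference was 1.00 (SE 0.18, 95% interval 0.62 to 1.39), a 2.01-fold rise with an adjusted p of 0.000125 in limma. Most of it was in place by 180 dpc, where the level was already 0.73 above that at 110 dpc (adjusted p = 0.00784). In CH the order of the group means followed age, from 2.92 through 3.55 and 3.67 to 4.01, whereas in BA the mean at 210 dpc, 3.25, lay below that at 180 dpc, 3.55. In the mean of the breeds neither the step from 180 to 210 dpc (-0.09, adjusted p = 0.809) nor that from 210 to 260 dpc (0.37, adjusted p = 0.0957) passed. A second tested *STAT3* probe rose by 0.93 (adjusted p = 8.11e-06). The other 3 *STAT3* probes were too dim for the filter and did not move together. In a fit over all probes on the array, 1 of them had a difference of 0.52 (adjusted p = 0.0277), while 2 that were well above background on only 11 and 7 of the 21 arrays had differences of -1.01 and -1.66 (adjusted p = 0.0378 and 0.00581).

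*STAT5B*, which with *STAT5A* relays growth hormone, was 1.58, 2.15 and 1.59 in BA and 2.45 and 1.72 in CH at 110 dpc. At 260 dpc it was 3.00 and 3.36 in BA and 2.42, 2.82 and 2.63 in CH. The BA foetuses of the 2 stages were far apart, and the CH foetuses overlapped. In the mean of the breeds the rise was 0.97 (SE 0.17, 1.96-fold, adjusted p = 0.000106). Within BA it was 1.40 (adjusted p = 0.000138), and within CH the difference of 0.54 did not pass (adjusted p = 0.0766). The difference between these changes, 0.87 with a 95% interval of 0.13 to 1.60, did not pass either (adjusted p = 0.661 in limma). The rise was reached early, with 0.61 by 180 dpc (adjusted p = 0.0161) and 0.85 by 210 dpc (adjusted p = 0.000494). No further change passed from 210 to 260 dpc (0.13, adjusted p = 0.568).

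*STAT5A*, the near neighbour and close paralogue of *STAT5B*, showed no such change. The 5 foetuses at 110 dpc had levels of 0.39 to 1.49 and the 5 at 260 dpc of 0.46 to 1.57, almost the same range. In every group that held both sexes, each male lay above each female. The females alone had 0.41 (BA) and 0.39 and 0.41 (CH) at 110 dpc, and 0.97 and 1.37 (BA) and 0.46 (CH) at 260 dpc. In the mean of the breeds the difference between the stages was 0.40 with a 95% interval of -0.19 to 1.00 (adjusted p = 0.223), which does not exclude a rise as large as that of *STAT5B*. It did not pass under any of the 35 alternatives, which include sex as a covariate. *STAT5B*, *STAT5A* and *STAT3* are consecutive protein-coding genes in the ARS-UCD2.0 annotation, yet their deviations from the group means were unrelated or opposed across the 21 arrays (r = 0.002 for *STAT3* with *STAT5A*, -0.08 for *STAT5A* with *STAT5B* and -0.50 for *STAT3* with *STAT5B*, as descriptions of arrays that share normalization). Cross-hybridization between the STAT5 paralogues was not tested.

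*STAT6*, which carries the interleukin 4 signal, was well above background on only 8 of the 21 arrays and was not tested. Its values on those 8 arrays ran from -2.63 to 0.43, with the highest on a BA array at 260 dpc. The *IL4R* receptor that feeds *STAT6* rose by 2.32 (adjusted p = 5.66e-11) over the same stages.

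*STAT2*, the interferon-specific STAT, kept a narrow range from 1.62 to 2.89 over all arrays. Its difference of -0.28 (95% interval -0.60 to 0.04) missed the threshold (adjusted p = 0.114 in limma). It was -0.13 (adjusted p = 0.28) without BA replicate 3 at 110 dpc, and -0.39 without BA replicate 2 at 110 dpc, where it passed (adjusted p = 0.0175). Its highest value was again that of the BA array at 110 dpc with the highest *ISG15*.

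*IRF1*, a factor that interferon gamma induces, was 0.40, 0.81 and 3.03 in BA and 0.86 and 0.94 in CH at 110 dpc. At 260 dpc it was 3.48 and 2.55 in BA and 2.03, 2.03 and 2.16 in CH. Apart from the single BA value of 3.03, every early value was below every late one. The rise of 1.39 (SE 0.36, 2.61-fold) had an adjusted p of 0.00259 and grew to 1.79 (adjusted p = 3.88e-07) when that array was left out. It was present by 180 dpc (1.10, adjusted p = 0.0323) and did not increase detectably from 210 to 260 dpc (0.25, adjusted p = 0.587). Within BA the difference between 260 and 110 dpc was 1.60 (adjusted p = 0.0133 in limma), and within CH that of 1.17 did not pass (adjusted p = 0.061). With slide as a block the difference in the mean of the breeds was 1.03 and did not pass (adjusted p = 0.139). Only 1 slide held both a 110 and a 260 dpc foetus, and there the older was 1.63 higher. The younger was BA and the older CH, so this pair differs in breed as well as in stage.

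*IRF3*, the constitutive factor that is activated by viral RNA and DNA sensing, moved in the opposite direction. At 110 dpc it was 3.25, 3.17 and 3.61 in BA and 3.17 and 3.07 in CH. By 260 dpc it was 2.56 and 2.34 in BA and 2.35, 2.34 and 2.53 in CH. No late foetus reached any early one. The fall was the most precisely measured of all the members, with a difference of -0.80 (SE 0.09, 1.75-fold lower at 260 dpc, adjusted p = 6.46e-07), and was of like size in BA (-0.90) and CH (-0.71). The second *IRF3* probe gave -0.84 (adjusted p = 7.48e-06). In contrast to the rises above, most of it came late: the difference was -0.12 by 180 dpc (adjusted p = 0.396), -0.30 by 210 dpc (adjusted p = 0.00961) and -0.51 between 210 and 260 dpc (adjusted p = 0.000169). *MAVS*, an adaptor through which RNA sensors reach *IRF3*, rose by 0.66 over the same stages (adjusted p = 1.31e-07). Of the 4 sensors and adaptors tested, 1 rose and 1 fell, with a median of 0.034 against 0.035 over all probes. Without BA replicate 3 at 110 dpc 1 rose and 0 fell.

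*IRF7* and *IRF9* showed no change with stage over all arrays, and a rise when 1 array was set aside. *IRF7*, the inducible partner of *IRF3*, was 0.75, 1.26 and 5.30 in BA and 1.05 and 1.03 in CH at 110 dpc, and 2.23 and 2.17 in BA and 1.84, 2.27 and 1.71 in CH at 260 dpc. With all arrays the difference was 0.33 (95% interval -0.90 to 1.56, adjusted p = 0.641), and without the BA array at 5.30 it was 1.05 (adjusted p = 0.000257). *IRF9*, the DNA-binding subunit of the complex it forms with *STAT2*, was 3.36, 3.42 and 6.17 in BA and 3.16 and 3.28 in CH at 110 dpc, and between 3.75 and 3.94 in the 5 foetuses at 260 dpc. Its difference went from 0.07 (adjusted p = 0.883) to 0.54 (adjusted p = 0.0295) without the same array. Both *IRF7* probes and *IRF9* then joined the members that differed, making 9 of 11 probes, against 63.9% of all probes tested in the same fit. In the female foetuses alone, which leave out other arrays too, *IRF7* was 0.80 (adjusted p = 0.00822 in limma) and *IRF9* 0.56 higher at 260 dpc (adjusted p = 0.0208). In CH, which does not hold that array, the group means of *IRF7* followed age, 1.04, 1.29, 1.68 and 1.94, but neither this change (0.90, adjusted p = 0.382) nor that of *IRF9* (0.62, adjusted p = 0.385) passed within CH.

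**Figure D2:**
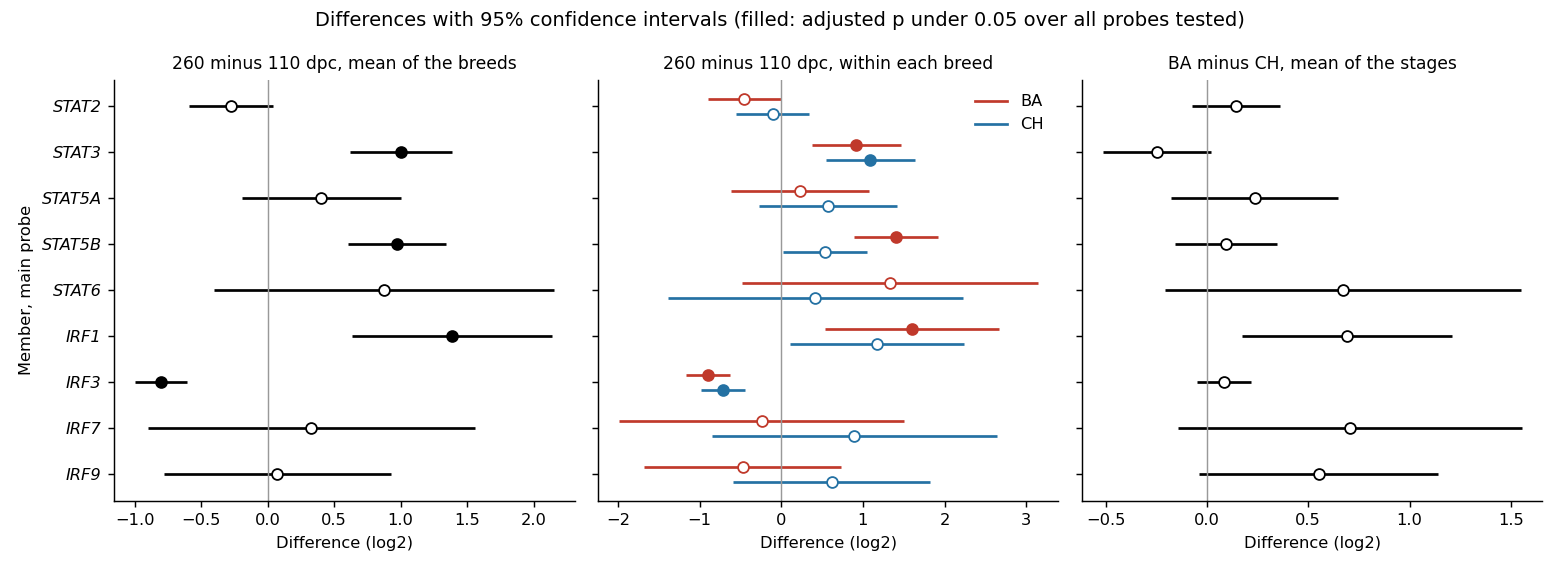
Differences in normalized log2 intensity (horizontal axes) for the main probe of each member, with 95% confidence intervals from limma, between 260 and 110 dpc in the mean of the breeds (left) and within each breed (middle), and between BA and CH in the mean of the stages (right). Filled points have an adjusted p under 0.05: *STAT3*, *STAT5B*, *IRF1* and *IRF3* between stages in the mean of the breeds, and no member between breeds. Within each breed *STAT3* and *IRF3* are filled in BA and CH, and *STAT5B* and *IRF1* in BA only.

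Genes around the members in the pathway moved in several directions between 110 and 260 dpc. Of all probes tested, 33.3% were higher and 30.8% lower at 260 dpc. The counts in this and the next paragraph are to be read against these shares. Of the 9 receptor genes tested, 4 rose and 1 fell, the rises of lowest p being those of *IL4R*, *IFNGR1* (0.33, adjusted p = 0.00279) and the interleukin 6 receptor *IL6R* (0.68, adjusted p = 0.00718). None of the 3 kinases tested (*JAK1*, *TYK2* and *TBK1*) passed, with differences between -0.17 and 0.10. Among 9 inhibitors 2 rose and 3 fell, the falls being those of *PIAS3* (-0.63, adjusted p = 1.15e-05), which blocks DNA binding by *STAT3*, *SOCS5* (-0.71, adjusted p = 0.000135) and *PIAS4* (-0.43, adjusted p = 0.0247). *SOCS2*, itself a STAT5 target that dampens growth hormone signals, rose by 0.35 (adjusted p = 0.00276). With the BA array of highest *ISG15* left out, the receptor gene *LIFR* and the inhibitor and STAT5 target *CISH* rose as well, *TYK2* fell (-0.22, adjusted p = 0.0184), and *PIAS4* no longer passed (adjusted p = 0.0619).

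Of the 4 tested genes listed as responders to *STAT3*, 3 rose and none fell, with *FOS* at 3.55 (adjusted p = 3e-08) and *JUNB* at 1.17 (adjusted p = 1.43e-05). Of the 7 genes listed as responders to STAT5 and growth hormone, 4 rose and 1 fell. *BCL6* rose by 2.79 (adjusted p = 7.47e-11) and *CCND1*, a cyclin of proliferating cells, fell by 1.01 (adjusted p = 2.94e-06). The median of the 4 responders to *STAT3* was 0.78 and that of the 7 to STAT5 was 0.33, against 0.04 over all probes tested. Of the 20 interferon-induced genes tested (of 40 listed, 31 with a probe), none rose and 3 fell, *IFIT5*, *CXCL10* and *EIF2AK2*, and the list's median was -0.17. The absence of rises and the negative median, but not the 3 falls, rested on BA replicate 3 at 110 dpc, without which 63.9% of all probes were called. Without it 8 of the 20 rose, among them *PSMB8*, which encodes an immunoproteasome subunit (1.68, adjusted p = 1.39e-05), and the antiviral gene *RSAD2* (1.79, adjusted p = 6.37e-05), the same 3 genes fell, and the median was 0.53 against 0.03 over all probes. Of the other IRF genes tested (*IRF2*, *IRF4*, *IRF5* and *IRF8*), only *IRF8*, a factor of myeloid cells, passed (0.78, adjusted p = 0.00799). Cell type markers moved over the same stages. Of the 9 leukocyte markers tested (of 18 listed) 3 rose and 4 fell, with a median of 0.08 against 0.04 over all probes tested. Of 4 red cell genes 3 fell, and of 5 fibroblast genes 4 fell. Of 5 endothelial genes *PECAM1*, *VWF* and *TEK* rose and *KDR* fell. Of the 9 skeletal muscle genes 4 rose (*CKM*, *ACTA1*, *TNNT3* and *DES*) and 3 fell (*MYF5*, *MYH3* and *MYOG*). Their part in the changes of the members was not tested.

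The next question was whether the breeds differ. No member differed between BA and CH, either in the mean of the stages, where 0 of 11 probes passed against 0.358% of all probes, or at any single stage, where 0.273%, 0.00993%, 0% and 0% of all probes passed at 110, 180, 210 and 260 dpc. At an unadjusted p under 0.05, 2 of the 11 member probes (*IRF1* and the second *STAT3* probe) and 12.5% of all probes differed in the mean of the stages. The change from 110 to 260 dpc did not differ between the breeds for any member probe either (0 of 11 in limma, 1 at an unadjusted p under 0.05, that of *STAT5B*, with 0% of all probes called).

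The member with the smallest p was *IRF1*. At 180 dpc it was 3.25 and 2.39 in BA and 1.73, 1.65 and 1.72 in CH, with all BA foetuses above all CH foetuses. The same was true at 260 dpc, but at 110 and 210 dpc the breeds overlapped. The exact permutation p was 0.1 at 180 and at 260 dpc. All BA foetuses also lay above all CH foetuses for *IRF9* at 110 and 180 dpc, *IRF7* at 180, *STAT5B* at 260, and *STAT5A* and *IRF3* at 110 dpc. The share of all probes that separated so is not given. In the mean of the stages *IRF1* was 0.69 higher in BA (SE 0.25, 1.61-fold, adjusted p = 0.242), with an exact two-sided p of 0.0124 when breeds were permuted within stages for this gene alone. Without the BA array of highest *ISG15* the difference was 0.49 (adjusted p = 0.113). BA was higher in 5 of the 6 pairs of BA and CH foetuses of the same stage on the same slide, by 0.48 on average.

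*IRF7* and *IRF9* had medians of 2.04 and 3.83 in the 10 BA foetuses and of 1.63 and 3.66 in the 11 CH foetuses, with wide BA ranges of 0.75 to 5.30 and 3.36 to 6.17. The differences, 0.70 for *IRF7* (95% interval -0.15 to 1.55) and 0.55 for *IRF9* (-0.04 to 1.14), had adjusted p values of 0.485 and 0.429 and exact permutation p values of 0.0682 and 0.045. Without the array of highest *ISG15* they were 0.35 and 0.32 (adjusted p = 0.328 and 0.386). Beside them, *ISG15* was 1.86 and *MX1* 1.54 higher in BA, and neither passed over all probes (adjusted p = 0.293 and 0.26). *STAT3* leaned the other way, at -0.25 (95% interval -0.51 to 0.02, adjusted p = 0.433). The intervals for *STAT2* (-0.08 to 0.36), *STAT5B* (-0.16 to 0.35) and *IRF3* (-0.05 to 0.22) leave room only for small average differences, whereas that for *STAT5A* (-0.18 to 0.65) is wider.

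The remaining question was which members rise and fall with the interferon-induced genes from foetus to foetus within a group. *ISG15*, a ubiquitin-like modifier, and *MX1*, an antiviral GTPase, were strongly variable. In the BA foetuses at 110 dpc *ISG15* was -0.11, 1.81 and 8.09 and *MX1* 1.45, 3.29 and 7.73, and at 210 dpc 1 BA foetus reached 3.94 and 5.40 against at most 1.05 and 3.01 in the other 2. Within CH the widest range of *ISG15* was at 180 dpc, from -0.47 to 0.68. To take breed and stage out, each value was set against its group mean. *ISG15* and *MX1* then correlated with each other at r = 0.986 over the 21 arrays.

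*IRF7*, *IRF9* and *IRF1* followed both genes when all arrays were used, and the STAT members did not. In limma, with a slope on *ISG15* beside the 8 group means, 4 of the 11 probes passed (both *IRF7* probes, *IRF9* and *IRF1*), all with positive slopes, against 1.08% of all probes (0.929% with positive slopes). With *MX1* in place of *ISG15* the same 4 probes passed, against 0.864% (0.76% positive). A further 2 member probes on *ISG15*, those of *STAT2* and *IRF3*, had an unadjusted p under 0.05.

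*IRF7* was the closest follower. In the 3 BA foetuses at 110 dpc it stood at 0.75, 1.26 and 5.30, in the same order as *ISG15*, and at 210 dpc at 1.90, 1.66 and 2.71, again in that order. At 260 dpc the order was reversed in the BA foetuses, with *IRF7* at 2.23 and 2.17 and *ISG15* at 1.28 and 1.70. It was also reversed in the 2 CH foetuses lower in *ISG15* at 260 dpc (*IRF7* 1.84 and 1.71, *ISG15* 1.02 and 1.13). For each log2 unit of *ISG15*, *IRF7* was 0.54 higher (SE 0.04, adjusted p = 2.1e-07). Pearson's r was 0.973 and Spearman's rho 0.909 (exact permutation within groups, two-sided p = 0.000193 and 0.000997), and with *MX1* 0.955 and 0.926 (p = 6.43e-05 and 0.000482). Only 0.0298% of all probes correlated more highly with *ISG15*. The correlation was as follows when arrays were left out: r was 0.909 without the 2 arrays farthest from the median of *ISG15* (BA at 110 dpc, replicates 1 and 3), 0.977 within the 10 BA arrays and 0.848 within the 11 CH arrays. Without BA replicate 3 at 110 dpc alone, *IRF7* was the single member probe that still passed, with r = 0.914 and an adjusted p of 0.0129 on *ISG15* and 0.911 and 0.0169 on *MX1*. Its slope on *ISG15* was then shallower, 0.33 (SE 0.05) in place of 0.54, and the slope fitted for BA alone went from 0.54 (adjusted p = 7.02e-07 in limma) to 0.31, which did not pass (adjusted p = 0.0681). Then 11 probes of all those tested passed on *ISG15* and 8 on *MX1*.

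*IRF9* followed in BA. Its slope on *ISG15* was 0.36 (SE 0.03, adjusted p = 6.93e-06), with r = 0.948 and rho = 0.708 (exact permutation p = 0.0266 and 0.0332). With *MX1* r was 0.924 and rho 0.657 (exact p = 0.0263 and 0.044). Within the BA arrays r with *ISG15* was 0.972 and within the CH arrays -0.09, where *IRF9* itself hardly varied (3.16 to 3.92 over all 4 stages). Without the 2 farthest arrays r was 0.818, and without BA replicate 3 at 110 dpc the slope no longer passed (r = 0.754, adjusted p = 0.68). A fit with a slope for each breed gave 0.38 in BA (SE 0.03) and -0.02 in CH (SE 0.15), and their difference of 0.39 (SE 0.16) did not pass over all probes in limma (adjusted p = 1). This fit, chosen after the correlations had been seen, called 4 member probes in BA (0.949% of all probes on *ISG15* and 0.825% on *MX1*) and none in CH (0% of all probes). It called no difference between the breeds either (0%), with 1 member probe, that of *IRF9*, at an unadjusted p under 0.05. *ISG15* spanned a narrower range in CH, and the slope there had the larger error.

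*IRF1* followed least closely of the 3. Its slope on *ISG15* was 0.29 (SE 0.04, adjusted p = 0.00132), with r = 0.869 and rho = 0.583 (exact permutation p = 0.0226 and 0.0411). With *MX1* r was 0.840 and rho 0.527 (exact p = 0.0258 and 0.069). Most of this rested on 1 foetus: r fell to 0.391 without BA replicate 3 at 110 dpc (adjusted p = 0.999) and to 0.31 without the 2 farthest arrays. In the BA groups at 180 and 260 dpc the foetus higher in *IRF1* was the one higher in *ISG15* at 180 dpc and the one lower at 260 dpc. Within CH r was -0.13.

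**Figure D3:**
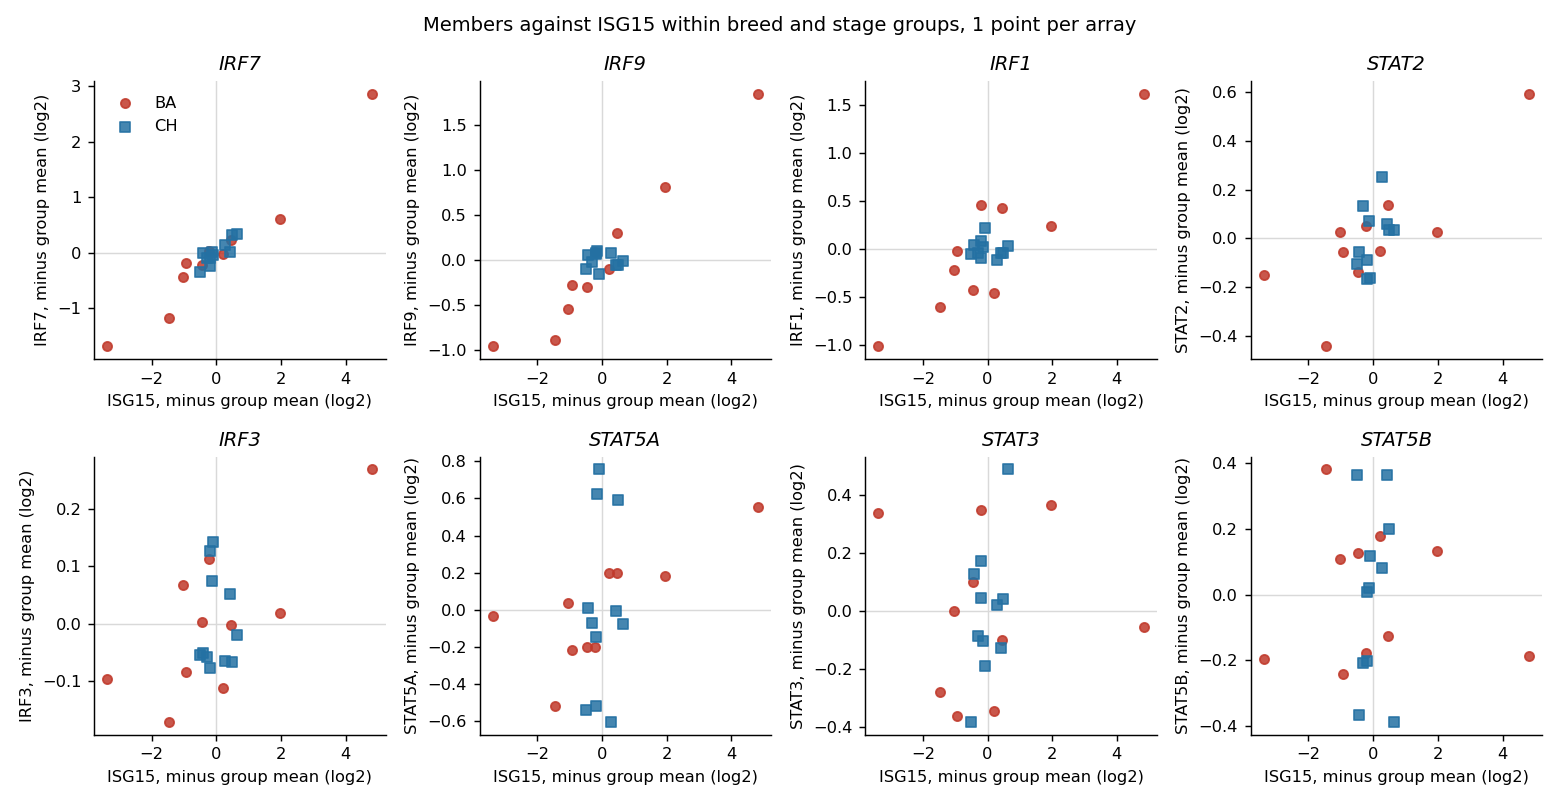
Deviation of each of the 8 tested members from its group mean (vertical axes, log2) against the deviation of *ISG15* from its group mean (horizontal axes, log2), with 1 point per array, circles for BA and squares for CH. The *IRF7* points lie along 1 line in both breeds, those of *IRF9* do so in BA, and those of *STAT3* and *STAT5B* show no slope.

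*STAT2*, the partner of *IRF9* in the interferon complex, came next without passing. Its r with *ISG15* was 0.747 and its rho 0.603 (exact permutation p = 0.132 and 0.0195), with a slope of 0.10 (SE 0.03, adjusted p = 0.0803). It passed with quantile normalization (r = 0.766, adjusted p = 0.049 in limma) and without BA replicate 3 at 210 dpc (r = 0.786, adjusted p = 0.0475). Without BA replicate 3 at 110 dpc its r was 0.08. Over the 21 arrays its deviations also correlated at r = 0.802 with the number of probes well above background, against 0.464 for *IRF7*, 0.456 for *IRF9*, 0.43 for *IRF1* and 0.375 for *ISG15*, and the part of this measure in the results was not tested. The slope of *STAT2* per log2 unit of *ISG15* was also shallower than that of *IRF7*, 0.10 against 0.54, a difference that was not tested.

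The other members did not pass with either gene. *IRF3* had an r of 0.599 with *ISG15* (exact permutation p = 0.24), which was -0.08 without BA replicate 3 at 110 dpc. *STAT5A* had an r of 0.397 (p = 0.152 in the exact permutation) and *STAT6*, mostly near background, 0.243 (exact p = 0.281). Within groups *STAT5A* also split by sex, as given above. *STAT3* (r = 0.036, exact p = 0.933) and *STAT5B* (r = -0.05, exact p = 0.915) lay near the median of all probes, -0.04. Their slopes on *ISG15* were 0.006 (SE 0.044) and -0.008 (SE 0.041). Without BA replicate 3 at 110 dpc they were 0.069 (SE 0.095) and 0.10 (SE 0.086), and neither passed. In all 18 relations were computed (9 members, 2 interferon-induced genes), and the adjusted p values given are those of the slopes over all probes tested.

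**Figure D4:**
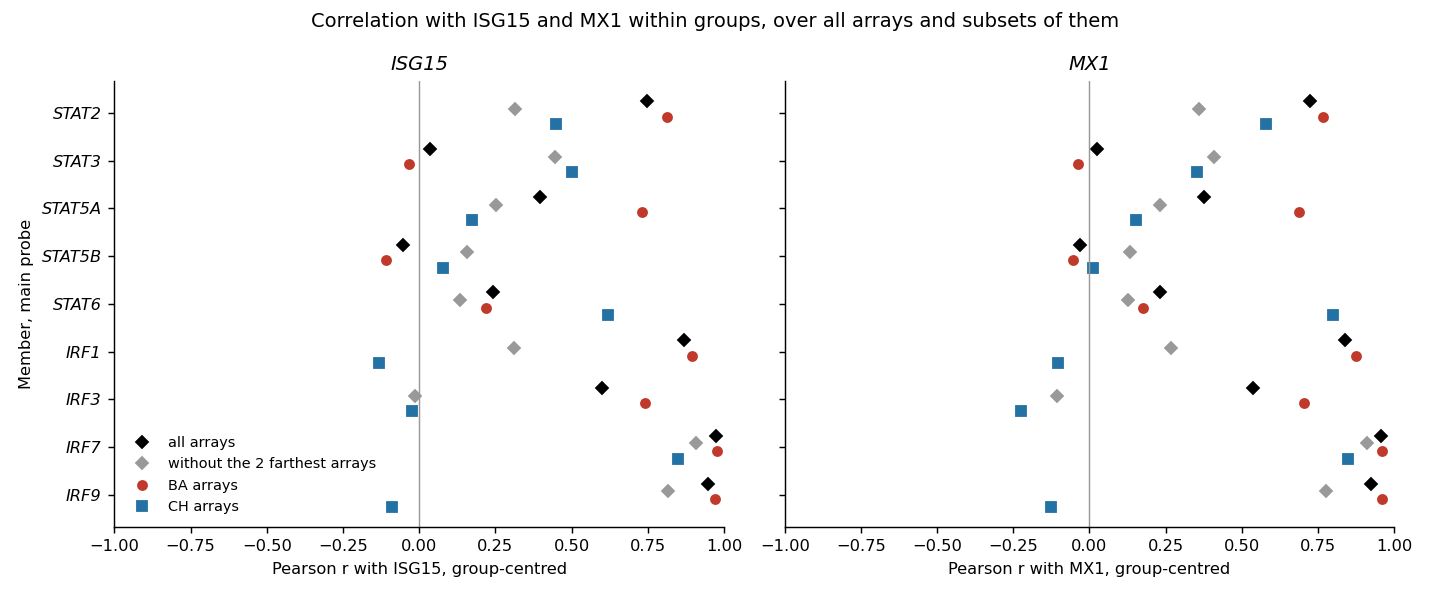
Pearson's r of each member with *ISG15* (left) and *MX1* (right) after subtraction of group means (horizontal axes), over all 21 arrays (black diamonds), without the 2 arrays farthest from the median of *ISG15* or *MX1* (grey diamonds), over the 10 BA arrays (circles) and over the 11 CH arrays (squares). For *IRF7* all 4 values with *ISG15* lie between 0.848 and 0.977, while those of *IRF9* and *IRF1* in CH lie just below 0.

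The followers also moved with one another. Across the 21 arrays the deviations of *IRF7* and *IRF9* correlated at r = 0.952, those of *IRF1* and *IRF7* at 0.911 and those of *IRF1* and *IRF9* at 0.907, all of them sharing the array of highest *ISG15*. Without it these values were 0.739, 0.477 and 0.553 over 20 arrays. Over all 21 arrays, that one included, the genes whose deviations were most like those of *IRF7* were *UBA7*, the enzyme that activates *ISG15* for conjugation (r = 0.987), and *RTP4* (0.975). Those most like *IRF9* were *RTP4* (0.982) and the class II antigen gene *BOLA-DRA* (0.974), and those most like *IRF1* were the chemokine *CXCL10* (0.952) and *ACSL5* (0.941). For *STAT2* they were *CYBC1* (0.926) and *WDFY4* (0.88), for *STAT3* *SRBD1* (0.857) and *TM2D2* (0.849), for *STAT5A* *CLRN3* (0.961) and *STRA6* (0.943), for *STAT5B* *IFRD2* (0.852) and *ZFAND5* (0.848), and for *IRF3* *TPM4* (0.891) and *SERTAD1* (0.868).

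Beyond the members, 17 of the 19 tested interferon-induced genes followed *ISG15*, the slopes of lowest p being those of *MX1* (0.76), *OAS1Y* (0.93) and *UBA7* (0.46), and the exceptions were *TAP1* and *CXCL10*. Without BA replicate 3 at 110 dpc 5 of the 19 did so, *MX1*, *OAS1Y*, *UBA7*, *IFI6* and *IFI27*, against 0.0546% of all probes. Of the other IRF genes tested, *IRF5* followed *ISG15* (0.18, adjusted p = 0.0361), whereas *IRF2*, *IRF4* and *IRF8* did not pass. The RNA sensor *TLR3* followed as well (0.15, adjusted p = 0.0106). Without BA replicate 3 at 110 dpc neither passed (0.15 for *IRF5* and 0.07 for *TLR3*, both with an adjusted p of 0.999). No tested gene did so among the 3 kinases, 9 receptors, 9 inhibitors, 4 responders to *STAT3* and 7 responders to STAT5. Of the 9 leukocyte markers tested, 1 followed *ISG15*, *CSF1R* (0.19, adjusted p = 0.0225), and none followed *MX1*. Without that array *CSF1R* did not pass either (0.06, adjusted p = 0.999). The mean level of these 9 markers was 3.70 to 4.37 in the BA foetuses at 110 dpc, 3.91 to 4.16 at 180, 3.76 to 3.86 at 210 and 3.62 to 3.80 at 260 dpc. In CH it was 3.77 to 4.04, 3.84 to 3.96, 3.59 to 3.94 and 3.56 to 3.62 at these stages. Its highest value was on the BA array of highest *ISG15*, and its deviations correlated with those of *ISG15* at r = 0.727. Among the 9 markers that were not tested, *CD79B* had no probe. *CD2*, *CD14* and *CORO1A* were well above background on all 21 arrays, *CD8A* on 20, *CD163* on 15 and *CD3E* on 13. *ITGAM* and *MS4A1* were well above background on 4 arrays each. The part of leukocytes in the results was not tested.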

How the data were processed

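Each foetus gave 1 single-colour 4x44K array. The authors deposited scanner files made with Agilent Feature Extraction (version 10.7 per the labels), in which each spot has a processed intensity after background and multiplicative detrending, and a value table that held the log2 of the same intensity with no scaling between arrays (649643 of 649670 values compared lay within 0.01). The median array had 30547 probes well above background, and the number of arrays limits the precision. Control spots were dropped, as were 258 values of spots the scanner software marked as outliers, spots of 1 probe were averaged, and each array's 75th percentile was subtracted from log2 intensity, with 1 constant added so that 0 is the median probe. Probes whose group mean was over 0 in at least 7 of the 8 groups (20132) entered limma (version 3.58.1, under R 4.3.3). The model held a mean for each of the 8 groups, and two-sided p values were adjusted over all tested probes by the Benjamini-Hochberg method (threshold 0.05). The fits were checked on simulated data. Following was the slope of a probe on *ISG15* or *MX1* beside the group means. A correlation without the 2 farthest arrays used group means taken without them.

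Probes were named through RefSeq transcripts of the ARS-UCD2.0 annotation. The named genes are the 9 members, each by its brightest tested probe, *ISG15* and *MX1*, for each member the 2 genes of highest r, and the list genes of lowest p, with others chosen after their values were seen (*MAVS*, the second probes and single markers). The members and the gene lists (pathway genes and markers of skeletal muscle, leukocytes, red cells, endothelium, fibroblasts and adipocytes) were chosen with earlier results of these data known. Results were recomputed with normexp background correction (offset 50), with quantile or median scaling, from the authors' table, without a filter or with one on detection, with sex or sire as a covariate, in females or 1 breed alone, with slide, scan day or replicate number as a block, with a trended, robust variance, with another probe, and leaving out each array. No sequence was used here.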

Additional observations from a re-analysis of the deposited data

How the results depend on the processing

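The counts of member probes that differed between 260 and 110 dpc ran from 5 of 11 with slide as a block, where 9880 of all 20132 probes were called, to 9 of 11 without BA replicate 3 at 110 dpc, where 12872 were, against 6 of 11 and 12906. With no filter it was 9 of 21, and on the detection filter 7 of 13. The share of all probes called is not given for these filter settings. Their counts therefore do not show whether members changed more or less often than probes at large. No member probe differed between the breeds under any of the 34 alternatives. The counts that followed *ISG15* and *MX1* were 4 and 4 with all arrays and 0 and 0 in the female foetuses alone, where 1 probe of all those tested passed on *ISG15* and 0 on *MX1*. Leaving out each array in turn gave 6 to 9 probes for 260 against 110 dpc and for the 4 stages, 0 to 0 for each breed comparison, 1 to 5 for following *ISG15* and 1 to 4 for following *MX1*, with the low value of 1 in both without BA replicate 3 at 110 dpc. In the CH foetuses alone the r of *IRF1* was -0.132 with *ISG15* and -0.102 with *MX1*, and that of *IRF9* -0.089 and -0.127. These fits hold fewer arrays. The females alone leave out the arrays of highest *ISG15*, both from males (BA replicate 3 at 110 dpc, 8.09, and BA replicate 3 at 210 dpc, 3.94). The cause was not tested otherwise. The females alone gave r = 0.812 for *IRF7* with *ISG15*.

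Same-numbered replicates of different groups shared no deviation (median r of 0.009 over 66 pairs, against -0.009 over 126 pairs of unlike number), so the samples were not paired. With a replicate block, 6 member probes differed between 260 and 110 dpc, 0 between breeds, and 4 followed *ISG15* and 4 *MX1*, as without it.

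In the authors' value table, which has no scaling between arrays, the median probe was 0.36 lower at 260 than at 110 dpc, against 0.04 higher on the scale used, and 23.9% of the probes called were higher at 260 dpc in place of 52%. *STAT2* then fell by 0.669 (adjusted p = 0.0351). With 2 or 3 arrays per group, absent calls within a breed or stage leave wide intervals, and *STAT6* could not be followed above background.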
